A study of Mus musculus with 8 samples.

Results

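The 9 genes described here are the mouse orthologs of marker genes of the CpG island methylator phenotype (CIMP) of human glioma: Sowaha, Hfe, Mal, Lgals3, Fas, Rhof, Dock5, G0s2 and Emp3. They were chosen from a list of gene names, and every region of the deposited list that lay in such a gene or within 5000 bp of it was taken. This gave 72 of the 220894 regions of the series, 46 in the gene intervals and 26 in the flanks. In the series, bisulfite sequencing after hybrid capture of mouse genomic DNA, which reads methylated cytosines in selected parts of the genome, was applied to 8 cell lines. The 4 IDH mutant tumour lines came from brain tumours of mice with a genotype that includes N::TVA, Cdkn2alox/lox and Atrxlox/lox. The 2 IDH wild-type tumour lines, labelled RAS glioma, came from mice labelled N::TVA with Cdkn2alox/lox. The 2 IDH wild-type lines of immortalized astrocytes came from mice with the same genotype as the mutant lines, carry PDGFA in their names, and 1 of them expresses exogenous wild-type IDH1. All 8 lines share the N::TVA and floxed Cdkn2a alleles and a mixed C57Bl/6, 129 and FVB/n background. Mutant and wild-type tumour lines differ in floxed alleles, Atrx among them, as well as in IDH, and only the wild-type ones are labelled RAS glioma. These differences cannot be told apart in a comparison of the tumour lines. The labels do not give the mutation, the ages of the mice or whether a line is 1 clone.

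Mutant isocitrate dehydrogenase produces 2-hydroxyglutarate, an inhibitor of the TET enzymes through which DNA methylation is lost, and human gliomas with the mutation carry dense methylation at many CpG-rich promoters. Methylation of a promoter at CpG sites commonly goes with silencing of its gene. The human counterparts of the listed genes are used to recognise such tumours. DOCK5 is an exception to the description as silenced genes, because in human glioma it is known as a marker that loses methylation in CIMP tumours. The deposited list holds the position of each region and 1 score for all 8 lines together. It holds no methylation level and no value of a single line, so whether these genes were methylated in mutant, wild-type tumour or astrocyte lines was not analysed here, and the values below carry no replicate error. What the list does show is which promoters lay in its regions. These are called covered below, in the sense of the pooled list: whether each line had reads in a region, or whether some line had reads outside all regions, is not shown by it.

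At the first listed start, the proximal promoters of Fas, Rhof and Emp3 were wholly inside covered regions, and that of Lgals3 was partly inside. Those of Mal, G0s2 and Hfe were outside. A transcription start was listed in RefSeq (build GRCm38.p6, the assembly that mm10 names) for 7 of the 9 genes, and not for Sowaha and Dock5. A window from 250 bases before to 50 bases after the start held at least 1 bp of a region in 6 of these 7 genes, beside 60.3% of the 17492 protein-coding genes with a listed start. Counting only the 250 bases before the start, 4 of the 7 genes had a region, beside 59.3%. All of those 250 bases were covered in 3 of the 7 genes, beside 31.1%, and the start itself lay inside a region in 4 of the 7, beside 40.5%. The start of every one of the 7 had a region within 1000 bp, beside 74.0% of genes. Placing Sowaha and Dock5 by their ends, 8 of the 9 genes had a region at the promoter window or an end, beside 63.8% of all protein-coding genes. With so few genes these shares are counts, and no difference from other genes was tested.

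**Figure D1:**
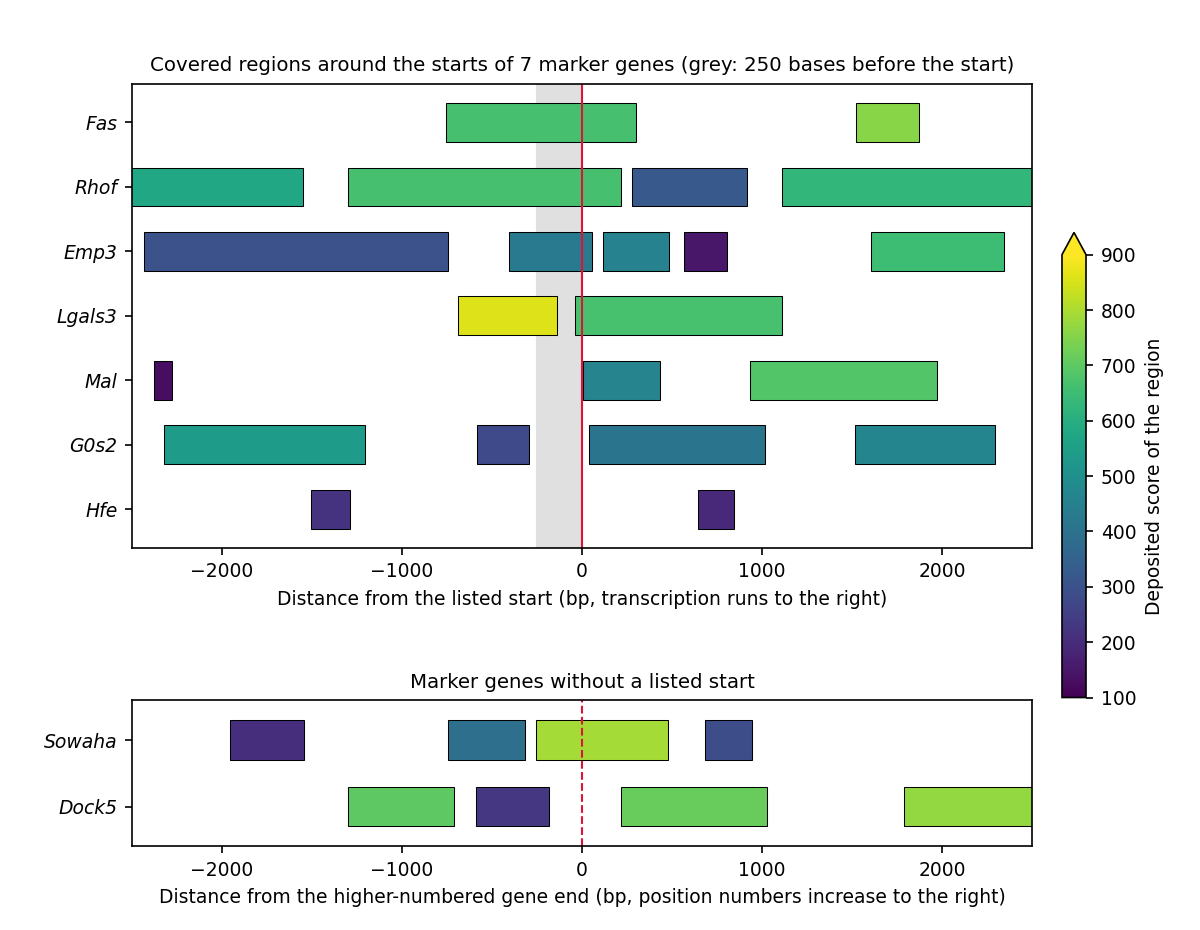
Covered regions near the marker genes, coloured by their deposited score (values over 900 share the top colour). The upper part gives the distance in bp from the listed start for 7 genes, with the 250 bases before it in grey, and the lower part gives the distance from the higher-numbered end of Sowaha and Dock5; the grey strip is filled for Fas, Rhof and Emp3, broken for Lgals3 and empty for Mal, G0s2 and Hfe.

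The 250 bases before the start are shown for the 7 genes, to let the CpG sites inside and outside the regions be seen. Each sequence runs 5′ to 3′ on the strand of the gene and ends with the base before the start. Capitals mark CpG sites inside a deposited region, and CpG sites in lower case lay outside every region. The 3 promoters that were covered throughout are, for Fas, chr19:34290409-34290658 on the plus strand, for Rhof, chr5:123132630-123132879 on the minus strand, and for Emp3, chr7:45921427-45921676 on the minus strand (GRCm38.p6, from RefSeq).
Fas: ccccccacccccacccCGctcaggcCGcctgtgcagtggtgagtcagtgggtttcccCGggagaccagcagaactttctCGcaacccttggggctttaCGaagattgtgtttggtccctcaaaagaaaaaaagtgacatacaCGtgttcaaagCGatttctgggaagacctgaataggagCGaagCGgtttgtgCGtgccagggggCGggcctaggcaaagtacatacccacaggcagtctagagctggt
Rhof: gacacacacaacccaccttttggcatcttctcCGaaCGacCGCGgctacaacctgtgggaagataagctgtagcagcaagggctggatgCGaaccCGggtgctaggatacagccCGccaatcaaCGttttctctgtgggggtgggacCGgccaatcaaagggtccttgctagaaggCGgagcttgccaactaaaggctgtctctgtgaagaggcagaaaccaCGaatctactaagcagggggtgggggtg
Emp3: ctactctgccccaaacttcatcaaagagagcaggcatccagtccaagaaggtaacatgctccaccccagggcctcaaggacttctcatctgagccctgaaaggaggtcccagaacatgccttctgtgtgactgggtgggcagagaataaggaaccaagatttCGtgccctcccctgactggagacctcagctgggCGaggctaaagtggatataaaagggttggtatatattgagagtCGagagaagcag

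In Fas and Rhof all 11 CpG sites before the start lay in covered DNA, and Emp3 had 3 such sites, all covered. The promoter that was covered in part is that of Lgals3, chr14:47373610-47373859 on the plus strand.
Lgals3: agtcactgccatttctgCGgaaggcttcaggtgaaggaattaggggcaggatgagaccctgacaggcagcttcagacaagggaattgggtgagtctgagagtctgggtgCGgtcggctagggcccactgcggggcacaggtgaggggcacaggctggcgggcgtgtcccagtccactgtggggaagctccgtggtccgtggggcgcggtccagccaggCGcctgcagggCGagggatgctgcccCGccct

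Of its 13 CpG sites, 5 lay inside a region, and the 8 in lower case fell in the gap between the regions on each side. The 3 promoters with no covered base are those of Mal, chr2:127656696-127656945, G0s2, chr1:193273189-193273438, and Hfe, chr13:23710855-23711104, all on the minus strand.
Mal: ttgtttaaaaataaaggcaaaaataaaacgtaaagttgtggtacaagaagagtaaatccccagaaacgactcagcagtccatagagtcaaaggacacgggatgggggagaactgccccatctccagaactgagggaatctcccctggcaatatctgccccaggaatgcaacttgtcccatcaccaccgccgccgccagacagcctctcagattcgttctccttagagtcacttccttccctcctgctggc
G0s2: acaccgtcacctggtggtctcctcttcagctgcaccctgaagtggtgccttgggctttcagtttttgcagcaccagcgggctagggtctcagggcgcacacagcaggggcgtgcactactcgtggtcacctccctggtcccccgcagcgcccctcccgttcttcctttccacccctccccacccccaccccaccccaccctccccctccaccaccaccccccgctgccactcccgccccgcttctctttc
Hfe: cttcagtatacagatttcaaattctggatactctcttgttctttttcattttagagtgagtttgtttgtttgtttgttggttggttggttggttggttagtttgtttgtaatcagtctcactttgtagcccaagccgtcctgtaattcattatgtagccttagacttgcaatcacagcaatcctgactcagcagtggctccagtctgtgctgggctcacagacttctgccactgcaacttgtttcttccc

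None of the 7 CpG sites of Mal, the 11 of G0s2 and the 1 of Hfe lay in covered DNA. Over the 7 promoters together, 30 of 57 CpG sites before the start were inside a region (52.6%), against 44.7% of the 257053 such sites over all 21263 listed windows of protein-coding genes. With the 50 bases after the start included, the count was 43 of 72 sites (59.7%), against 43.2% over all windows. These shares give each site equal weight, so windows with many CpG sites count most. No window of the 7 genes held more than 18 sites. The stretch before the start was wholly covered in 37.0% of windows with 20 to 29 sites and 8.86% with 30 or more. At lower numbers, as in the 7 genes, this ran from 7.03% (at most 2 sites) to 54.6% (15 to 19). The shares were not matched for CpG number, so no excess at the marker genes is drawn from them.

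**Figure D2:**
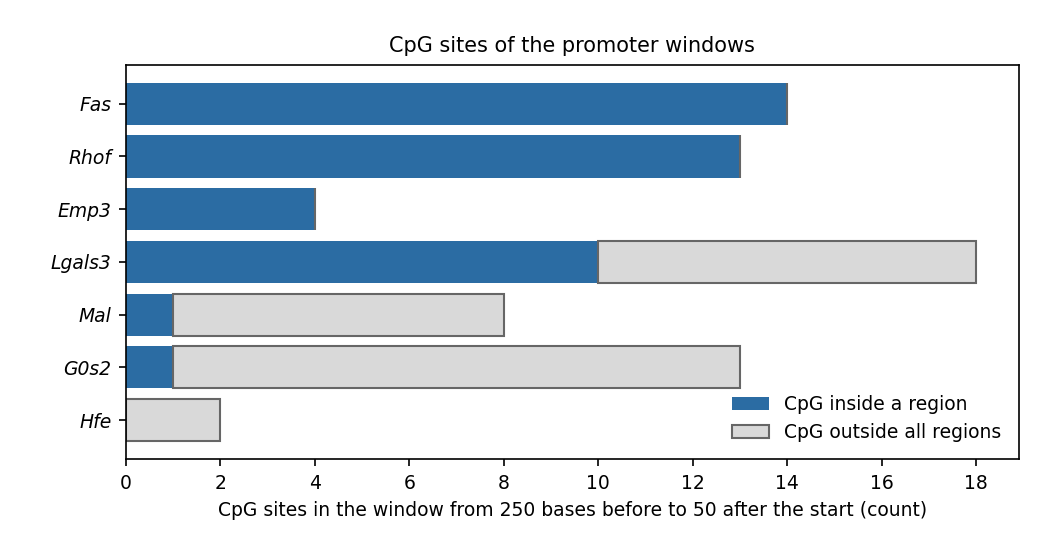
CpG sites in the window from 250 bases before to 50 after the listed start, as counts, split into those inside a region (blue) and those outside every region (grey). All 14 sites of Fas, 13 of Rhof and 4 of Emp3 were inside, as were 10 of 18 in Lgals3, whereas 1 of 8 in Mal, 1 of 13 in G0s2 and 0 of 2 in Hfe were.

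Coverage of promoters varied with their CpG number across the genome. Over all protein-coding windows, the share with a region was 13.6% with at most 2 CpG sites and 32.5% with 3 to 5. It was 57.0% with 6 to 9 and 84.6% with 10 to 14, stood at 88.8% with 15 to 19, and was 58.5% with 30 or more. Hfe, with 2 sites in the window, belonged to the class that was covered least, and only 11.4% of all windows had fewer sites. Emp3, with 4 sites, was covered, in a class where 67.5% of windows had no region. G0s2 had 13 sites, as many as the median window, and stood among the windows that usually carry a region.

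**Figure D3:**
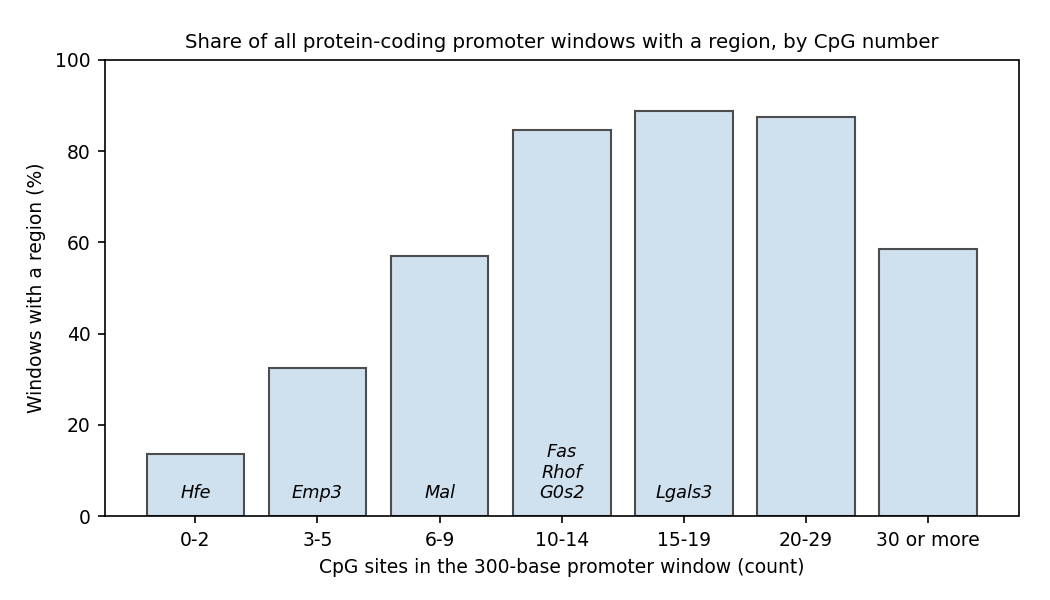
Share of all protein-coding promoter windows (percent, bars) that held a region, by the number of CpG sites in the 300-base window, with the 7 marker genes named in their class. The share is 13.6% in the class of Hfe and 84.6% in that of Fas, Rhof and G0s2.

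Fas encodes a death receptor of the tumour necrosis factor receptor family and lies on chromosome 19 (34290647 to 34327775, mm10). Its start lay in a region of 1060 bp that ran from 758 bp before to 301 bp after it, with a score of 663. Regions that began 1522 and 25682 bp downstream of the start scored 758 and 1866. Because regions differ in width, each score was also ranked among the regions of the series whose width was within 50 bp of its own. At like width the 3 Fas regions stood above 29.7%, 93.4% and 99.1% of regions, so the promoter region ranked low and the region deep in the gene ranked near the top. Fas had 0.637 regions per 10000 bp of gene and flanks, a density above that of 21.8% of protein-coding genes.

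Hfe, on chromosome 13 (23702034 to 23710854), encodes a protein related to class I histocompatibility molecules that limits iron uptake. The nearest region before its start was 1287 bp away and scored 218, and the nearest after it was 644 bp away and scored 193, which left 1930 bp around the start without a region. Inside the gene there was 1 more region, with a score of 127 that stood above 0.676% of regions of like width. The 3 other regions, with scores of 367, 673 and 1122, lay beyond the far end of the gene. The one with 1122 also covered the histone gene H4c3 and its promoter (23697161 to 23699130), so the highest score counted to Hfe belonged to a neighbour.

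Lgals3, Mal and Emp3 encode proteins of the cell surface and membrane. Lgals3 encodes galectin-3, a lectin that binds beta-galactosides, and lies on chromosome 14 (47373860 to 47386167). The region before its start ended 140 bp upstream of it with a score of 857, and the next began 39 bp upstream of the start and scored 667. They ranked above 73.5% and 27.9% of regions of like width, so neighbouring regions on a promoter differed in rank. The last region, 10031 bp downstream, scored 661.

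Mal encodes a proteolipid of myelin and of apical transport vesicles and lies on chromosome 2 (127633226 to 127656695). A region with a score of 462 began 5 bp after its start and ran to 434 bp after it. Before the start the nearest region was 2276 bp away, was 100 bp wide and scored 128, so 2280 bp around the start lay outside every region. Within the gene 3 more regions scored 682, 483 and 165. The covered CpG sites nearest to the start of Mal thus lay in the first part of the gene and not in the DNA before it.

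Emp3 encodes a membrane protein with 4 spans of the peripheral myelin protein 22 family and lies on chromosome 7 (45918023 to 45921426). The region over its first listed start ran from 404 bp before to 55 bp after the start and scored 426. A second start is listed downstream, whose window held 2 CpG sites, both covered, and touched regions with scores of 455 and 147. The region before the promoter, 1690 bp wide, scored 303 and stood above 0.0999% of regions of like width. It reached into the neighbouring gene Ccdc114, and the next one, with a score of 265, covered the promoter of Ccdc114 itself.

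Rhof and Dock5 act on the actin cytoskeleton. Rhof encodes a small GTPase that induces filopodia, and lies on chromosome 5. Its start, at 123132629, lay in a region of 1520 bp with a score of 663, which reached from 1301 bp before to 218 bp after it. The gene interval in RefSeq, 123118180 to 123141808, extends well before this start, and 6 of the 11 regions in the interval lay before it. Among the 6 regions before the listed start was the widest region of the 72, with 2190 bp and a score of 1040, which lies 6552 bp before it. The highest score of the gene, 1296, belonged to a region 2869 bp after the start. The 8 regions in the flanks of Rhof scored from 116 to 421, and all 8 touched a neighbour, 4 of them Tmem120b and 4 Setd1b, which encodes a histone methyltransferase.

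Dock5 encodes a guanine nucleotide exchange factor of Rac and is the longest of the 9 genes, at 181645 bp on chromosome 14 (67751928 to 67933572). It had 19 regions, as many as Rhof, at 0.991 per 10000 bp against 5.65 for Rhof. Their scores ran from 110 to 855 with a median of 503. The gene table gives no strand and no start for Dock5, so both ends were examined. Regions lay 182 bp inside the higher-numbered end, with a score of 225, and 219 bp beyond it, with a score of 713, and the end itself fell between them. The lower-numbered end had no region within 1000 bp, and the nearest one, 2768 bp away with a score of 738, lay in Gnrh1.

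G0s2 encodes an inhibitor of adipose triglyceride lipase and is the shortest of the 9 genes, at 1029 bp on chromosome 1 (193272160 to 193273188). Nearly the whole gene was covered by a region of 980 bp with a score of 407, which began 38 bp after the start. The next region, 293 bp before the start, scored 280, so 330 bp that hold the start and 11 CpG sites before it were left out. Regions with scores of 538 and 463 lay farther upstream and downstream. All 4 regions ranked low at like width, above 6.97% to 38.0% of regions.

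Sowaha encodes an ankyrin repeat protein and lies on chromosome 11 (53476578 to 53480195). It had 6 regions with scores of 205 to 791. The one with the highest score, 791, spanned the higher-numbered end of the gene (53479941 to 53480670). The lower-numbered end had no region within 1000 bp, and the nearest was 1663 bp away inside the gene. For genes without a listed start, 77.5% had a region within 1000 bp of an end, and Sowaha and Dock5 each had one at 1 end. Which of their ends holds the start is not given in the tables used here. A region within 1000 bp of the start is thus given only if the start lies at the higher-numbered end. By that wide measure the 7 genes with a listed start count as well. The higher-numbered end of Sowaha lay inside a region, but that of Dock5 lay in none, and the next region began 219 bp beyond it.

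All 9 genes had a region in the gene or within 5000 bp, as did 87.9% of the 21887 protein-coding genes, so this count does not set them apart. The density of regions ran from 0.637 per 10000 bp at Fas to 5.65 at Rhof, and the share of gene and flanks inside regions ran from 4.05% at Fas to 41.1% at Rhof. Rhof and Emp3 were covered more densely than 96.9% and 95.8% of protein-coding genes. Mal, Lgals3, Dock5 and Fas were below the middle, above 48.0%, 43.5%, 33.5% and 21.8%. Of the 72 regions, 13 touched another protein-coding gene or its promoter window, 8 of them at Rhof. The outermost region taken, 3408 bp from Sowaha, scored 242, and the nearest one left out, 5284 bp from Hfe, scored 520.

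The scores of the 72 regions had a median of 473 (quartiles 259 and 682), and the median of all regions of the series was 462 (235 and 768). At like width the median percentile was 38.3 for the marker genes and 50.8 over all regions, and 49.0 over all regions in or within 5000 bp of a protein-coding gene. Of the 72 regions, 24 (33.3%) had a percentile under 25 at like width, against 25.3% of all regions in or near such genes. Of the 13 regions that touched another protein-coding gene or its promoter window, 8 (61.5%) were under 25. Rhof, with a median percentile of 20.9, held 8 of those 13 regions. Of the 59 regions that touched none, 16 (27.1%) were under 25, close to the 25.3%. The genes differed among themselves: the median percentile was 93.4 at Fas and 70.0 at Lgals3, and below 50 at the other 7. Among those, Dock5 (49.2), Sowaha (48.6) and Mal (48.4) stood close to the 49.0 of all regions in or near such genes. Lower medians were found at Hfe (41.7), Emp3 (32.8), Rhof (20.9) and G0s2 (14.9). The regions of 1 gene share their neighbourhood and are not independent, and no test was made.

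**Figure D4:**
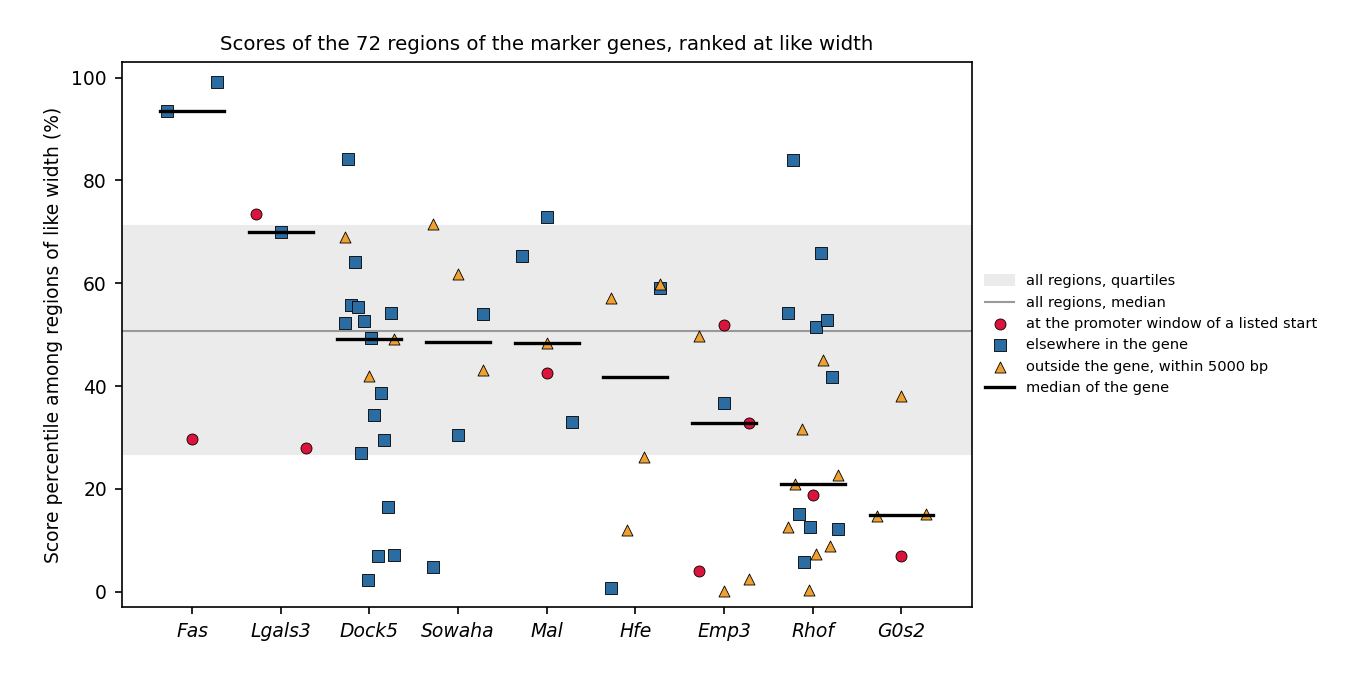
Score percentile (percent of regions within 50 bp of the same width that scored lower) of each of the 72 regions, by gene; bars give the median of a gene, and the grey band and line the quartiles and median of all regions. Fas has the highest median, 93.4, and G0s2 the lowest, 14.9, and the regions at promoter windows (red) lie at or below 73.5.

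Regions at promoter windows ranked lower at like width than regions elsewhere in the gene, by their medians, in the marker genes and in the whole list. The 9 regions at the windows of listed starts had a median percentile of 29.7, and the 11296 such regions of all protein-coding genes had 35.4. The 38 marker regions elsewhere in the gene intervals stood at 50.4, and all 109781 such regions at 49.6. The 26 marker regions in the flanks stood at 34.9, but 13 of them touched another protein-coding gene or its promoter window, and these had a median of 20.9. The 13 that touched none stood at 43.2, against 52.1 for all regions outside genes within 5000 bp of one. Ranked only among promoter regions of like width, the marker regions ran from above 11.7% (147, at the second start of Emp3) to above 85.8% (857, at Lgals3). Fas stood at 39.0, Rhof at 19.6 and G0s2 at 13.1.

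A further list was made of 13 genes linked to methylation in human IDH mutant or CIMP glioma, recalled without a source table and not complete. Of these, 12 matched a mouse protein-coding gene, and Chst6 did not. A start was listed for 8 of them, and 7 of the 8 had a region in the promoter window, beside 60.3% of all genes with a listed start. Some of the 250 bases before the start were covered in 5 of the 8, beside 59.3%, and all of them in 1 of the 8, beside 31.1%. Ldha, lactate dehydrogenase A, had all 250 bases before a start covered, by a region with a score of 380. Cbr1, a carbonyl reductase, had 216 of them covered (score 476), F3, tissue factor, 194 (241), Tcea3, a transcription elongation factor, 114 (580) and Pdpn, podoplanin, 90 (585). Ociad2 and the cyclin gene Ccna1 had a region in the window, with scores of 417 and 401, that held none of those bases, as in Mal and G0s2. Gjb6, the gap junction protein connexin 30, had no region in its window. Of the 4 genes placed by their ends, 3 had a region within 1000 bp, beside 77.5% of all genes without a listed start. Their highest scores were 1461 at Fabp5, which binds fatty acids, 806 at Acss3 and 225 at Cthrc1, whereas Rarres2 had none. A region in the window with none in the 250 bases before the start was thus seen in 2 of 7 marker genes and 2 of 8 genes of the further list, beside 0.955% of all genes with a listed start. This feature was singled out after the values were seen.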

How the data were processed

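Genomic DNA of 8 mouse cell lines was captured with an Agilent SureSelect kit for mouse methylation sequencing, per the labels' protocols. The submitters' processing notes name Novoalign 3.7.1, Picard and the build mm10. The region caller and any methylation caller were not given in the sources used here. Deposited was 1 list of 220894 regions, each with 1 score from the authors for the whole series, a whole number no lower than 100. Its unit is not stated, so it was used only to describe and rank regions within the list. Depth per line is unknown, and IDH mutant and wild-type lines were not compared. Lines were grouped by their source name.

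Regions were placed with RefSeq gene intervals and, where listed, transcription starts and promoter sequences (GRCm38.p6). A region counted with at least 1 bp shared, and coordinates count from 1. For genes with several listed starts, any start counted, and values by distance use the first in transcription order. A gene without a listed start was placed by 1000 bp to each side of both ends. A CpG site counted as inside when both bases were. Exons and introns were not placed. Percentiles give the share of regions within 50 bp of the same width that scored lower. All values were computed with Python 3.11.15, numpy 2.4.6 and pandas 2.3.3, and the look-ups were tested on simulated data. The marker genes, the further list and the windows were chosen with earlier results of these data known. All 9 marker genes and 13 genes of the further list are named. A further gene fixed for that list and part of the genotypes are not reported here. Alternatives were other windows, flanks, score minimums and width bands.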

Additional observations from a re-analysis of the deposited data

How the results depend on the processing

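The number of marker genes with a region at the promoter (8 of 9, with Sowaha and Dock5 placed by their ends) was 8 or 9 with 500, 1000 or 2000 bp to each side and 8 with scores of at least 200; Hfe entered at 1000 bp. It was 5 with scores of at least 500 and 4 when the midpoint of the region had to lie in the window. It was 5 when the start itself, or an end of a gene without a listed start, had to lie inside a region. Of the 7 genes with a listed start 4 met this last condition, beside 40.5% of all such genes. Shares of all genes for a score of at least 500 or the midpoint were not computed, so those counts have no comparison. Of the 12 matched genes of the further list, 10 had a region, beside 63.8% of all protein-coding genes; under the same 3 settings the counts were 4, 4 and 5. With only the 250 bases before a listed start, an alternative chosen after seeing the data, the counts were 6 and 8. Both counts still include genes without a listed start, placed by 1000 bp around their ends. Among genes with a listed start, 4 of 7 marker genes and 5 of 8 genes of the further list had a region, beside 59.3% of all such genes. All 9 genes had a region in or near the gene under each flank and score minimum tried. The 72 regions became 46 with no flank, and 93 with a flank of 10000 bp. Their median score, 473, was 496 with no flank, 490 with 1000 bp, 485 with 10000 bp and 490 without the 13 regions that touch another gene, also chosen after seeing the data. The median percentile, 38.3, was 40.2 with no flank, 37.8 with 10000 bp, 38.8 and 40.5 with width bands of 20 and 100 bp, and 41.9 without those 13 regions. No line could be left out, because the list gives no value per line. No paired analysis was possible because the list has no value per line and no result comes from a test.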
